A study of Arabidopsis thaliana with 6 samples.

Results

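Leaves of the mlo2 mlo6 mlo12 triple mutant of Arabidopsis thaliana were compared with wild-type (WT) leaves at 7 weeks after sowing, the last of the 3 harvests of the study. The comparison consists of 2 of the 6 arrays, chosen by their labels alone: the triple mutant at 7 weeks and WT at 7 weeks. The other 4 arrays held the triple mutant and WT at 5 weeks and at 6 weeks, and are given beside many of the results. Some genes are given at 7 weeks only, and their differences at 5 or 6 weeks may run the other way. All were mature rosette leaves of plants kept under normal conditions. Neither genotype received a treatment or a pathogen, and the labels give no accession background for either. Each combination of genotype and age is 1 array, the labels do not say how many plants it holds, and so no difference at 7 weeks has a replicate check or a test. Values are log2 on the scale of robust multi-array average (RMA), differences are mutant minus WT, and 1 log2 unit is 2-fold.

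MLO genes encode plant-specific membrane proteins with several membrane-spanning segments. Powdery mildew fungi need them to enter epidermal cells, and plants without the redundant set MLO2, MLO6 and MLO12 resist the fungus. Mutants in these genes are also known for spontaneous callose deposits, early leaf death and early senescence, which appear as the plant ages, so the oldest leaves are those in which a late phenotype would be looked for. The title of the series names the role of indolic compounds in resistance of the mlo2 mutant to fungi.

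The probe sets of MLO2, MLO6 and MLO12 are not among those that the annotation gives a single gene, so the genotype labels could not be checked through them. The leaf label was checked on 9 nuclear photosynthesis genes, which lay between 10.04 and 12.54 in the mutant and between 9.94 and 12.62 in WT at 7 weeks. Of the markers of other tissues and of single cell types, 4 were measured, all of them low. The root gene PYK10 read 2.31 in the mutant and 2.53 in WT, the guard cell factor FMA 3.72 in the mutant and 3.57 in WT, the trichome gene TRY 3.35 in the mutant and 3.46 in WT, and the stem cell gene CLV3 2.45 in the mutant and 2.41 in WT. No flower, seed, phloem or xylem marker was measured, and each of the 4 above is 1 dim gene for its type. A difference in the makeup of cells therefore cannot be told apart from a difference within cells. Across a leaf, fewer cells of a type and less RNA per cell give the same reading. The 2 arrays at 7 weeks correlated at r = 0.987 over 22746 probe sets, and the SD of their differences was 0.35, against 0.47 for the pair at 6 weeks and 0.32 for the pair at 5 weeks.

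At 7 weeks, 325 probe sets were at least 2-fold higher in the mutant than in WT (1.43% of the 22746) and 95 were at least 2-fold lower (0.418%). The median difference over all probe sets was -0.02, and 46.0% were above 0. Named genes past 2-fold on the higher side included the senescence factor WRKY53 (1.84), the calcium sensor CML41 (1.79), the cell wall peroxidase PRX71 (1.72) and the chitinase CHI (1.48). On the lower side they included the linker histone HIS1-3 (-3.10), the thionin THI2.2 (-2.20) and the cold-regulated COR47 (-1.18) and COR15A (-1.10). The counts at the other ages were 199 higher (0.875%) and 98 lower (0.431%) at 5 weeks, and 674 higher (2.96%) and 448 lower (1.97%) at 6 weeks.

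Of the 325 higher probe sets, 167 had 1 gene in the annotation, 5 had several and 153 were not listed in it, so their genes are not named here. Of the 95 lower probe sets, 49 had 1 gene and 46 were not listed. Counted over 13421 probe sets with 1 nuclear gene, 166 were higher (1.24%) and 47 were lower (0.35%). Differences reached 3.58 among the higher probe sets and -4.88 among the lower, and 31 higher and 13 lower probe sets were at least 4-fold apart. Genes whose only name is the locus identifier are given by that identifier, with no role.

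**Figure D1:**
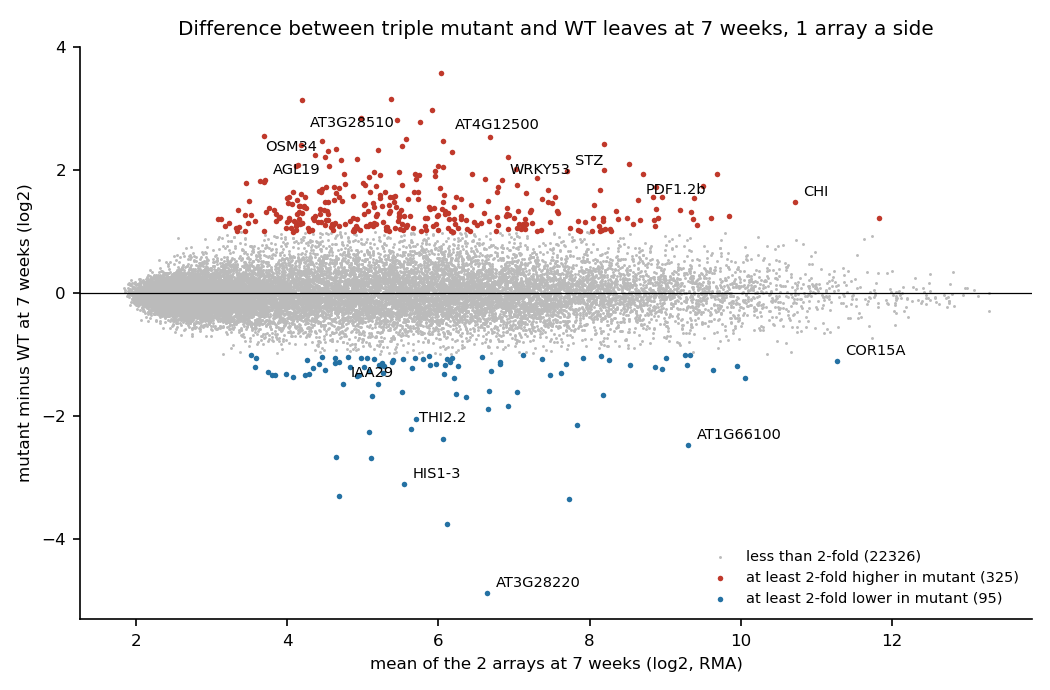
Mutant minus WT at 7 weeks (vertical axis, log2) against the mean of the 2 arrays (horizontal axis, log2, RMA), 1 point per probe set. Red points are the 325 probe sets at least 2-fold higher in the mutant and blue points the 95 at least 2-fold lower, and both kinds occur from dim to bright probe sets, with AT3G28220 at -4.88 farthest from 0.

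Among nuclear probe sets with 1 gene, AT3G28510 had the largest positive difference, whereas unlisted probe sets reached 3.58. The log2 level of AT3G28510 was 3.96, 4.08 and 5.69 in the mutant at 5, 6 and 7 weeks, against 2.95, 3.88 and 3.22 in WT at those ages, a 7-week difference of 2.47, or 5.56-fold. The mutant was above WT at every age, and its 7-week array was the highest of the 6. AT4G12500 differed by as much at 7 weeks, with 3.19, 4.84 and 7.29 in the mutant and 3.29, 7.05 and 4.82 in WT at 5, 6 and 7 weeks. Here the WT array at 6 weeks nearly equalled the mutant array at 7 weeks, and the 6-week difference ran the other way at -2.20.

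The 15 largest nuclear differences on the higher side lay between 1.95 and 2.47, and those on the lower side between -4.88 and -1.31. On the higher side they held 12 genes with no name beyond the locus. Among these, AT1G65690 read 5.44, 6.35 and 7.02 in the mutant at 5, 6 and 7 weeks and 4.52, 4.87 and 4.95 in WT, above WT at every age. AT5G52760 was brighter, at 8.34, 9.95 and 9.57 in the mutant and 8.0, 8.99 and 7.48 in WT. AT2G44240 read 5.95, 5.63 and 7.42 in the mutant and 3.66, 4.77 and 5.47 in WT, so that all 3 mutant arrays were above all 3 WT arrays. The share of all probe sets in that order was not counted, and choosing genes on the 7-week difference favours it. This holds too for EXO, ATPMEPCRB and KELP below. AT3G10930 read 2.53, 3.97 and 5.14 in the mutant and 2.38, 5.48 and 3.08 in WT, with the highest array in WT at 6 weeks.

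Genes of growth and stress regulation came next. ARL (ARGOS-like), which promotes cell expansion, read 5.10, 6.56 and 6.36 in the mutant at 5, 6 and 7 weeks and 5.54, 7.31 and 4.04 in WT, a 7-week difference of 2.33. The WT array at 7 weeks was the lowest of the 6 and the WT array at 6 weeks the highest. OSM34, an osmotin-like protein of the family of pathogenesis-related thaumatin proteins, read 2.65, 3.12 and 5.49 in the mutant and 2.6, 3.45 and 3.25 in WT, a difference of 2.24. Its 5 other arrays lay between 2.6 and 3.45, and the mutant at 7 weeks stood alone above them. STZ, a zinc finger repressor of stress responses, read 5.99, 7.59 and 8.69 in the mutant and 6.36, 8.26 and 6.70 in WT, a difference of 1.99. It was below WT in the mutant at 5 and 6 weeks and above it at 7 weeks. EXO (EXORDIUM), a brassinosteroid-responsive gene of cell growth, read 5.39, 5.13 and 5.72 in the mutant and 4.40, 4.19 and 3.78 in WT. All 3 mutant arrays of EXO were above all 3 WT arrays, with a 7-week difference of 1.94.

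Regulators of leaf ageing and flowering were among the higher genes. WRKY53, a transcription factor that promotes leaf senescence, read 5.46, 7.17 and 7.76 in the mutant at 5, 6 and 7 weeks and 6.04, 6.08 and 5.91 in WT. WT was nearly level over the ages, while the mutant was below it at 5 weeks and 1.84 above it at 7 weeks. AGL19, a MADS-box activator of flowering, read 2.41, 3.58 and 4.62 in the mutant and 2.66, 2.72 and 2.78 in WT, again below WT at 5 weeks and above it at 6 and 7 weeks, with a 7-week difference of 1.84. AGL42, another MADS-box factor of the floral transition, read 2.26, 2.47 and 3.72 in the mutant and 2.47, 2.66 and 2.52 in WT, a difference of 1.2. Of 42 measured AGAMOUS-like factors, these 2 were at least 2-fold higher and 0 were lower, with a median difference of -0.07 beside -0.02 for all 13355 genes. Both were dim in every WT array.

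**Figure D2:**
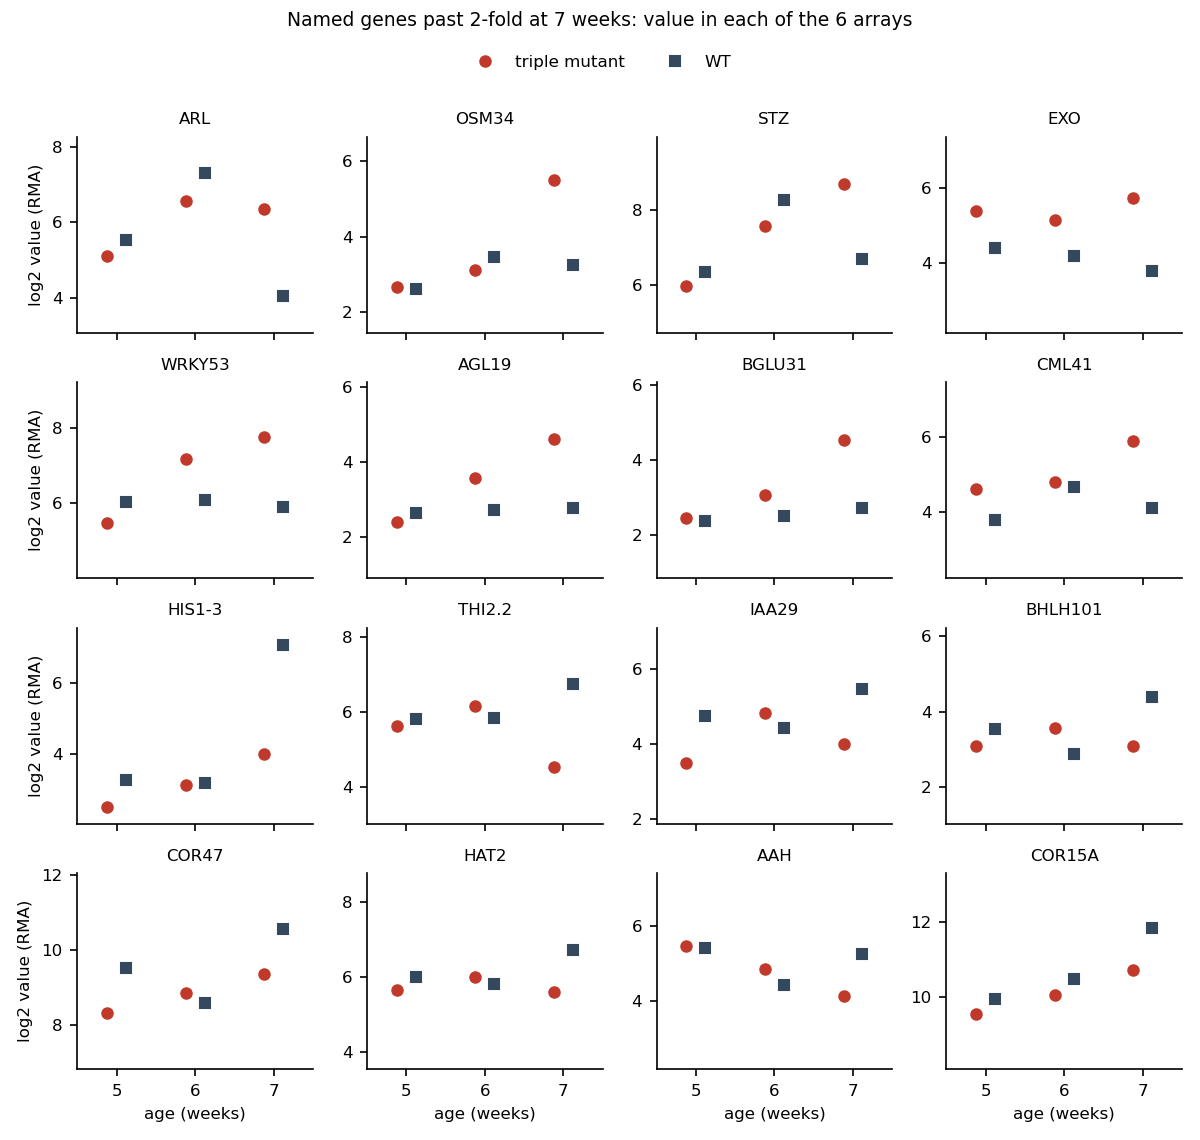
Log2 value (RMA, vertical axes) at 5, 6 and 7 weeks (horizontal axes) for named nuclear genes past 2-fold at 7 weeks. The 8 highest are in the upper 2 rows and the 8 lowest in the lower 2 rows, with organelle genes left out. Red circles are the triple mutant and dark squares WT, 1 array each; WRKY53, AGL19 and BGLU31 stay flat in WT, whereas ARL and STZ have a high WT array at 6 weeks.

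The lists behind the next paragraphs were matched to genes by symbol, synonym or locus, and each measured gene is counted once, by its probe set of the highest mean. Over 13355 genes so counted, 166 were at least 2-fold higher (1.24%) and 49 were at least 2-fold lower (0.367%). Few members of most lists have a probe set with a single gene in the annotation, so the counts are small and the lists are described only.

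Calmodulin-like proteins, calcium sensors with EF-hand motifs, had the highest median of the named families. Of 8 measured members, 4 were at least 2-fold higher and 0 were lower, 7 were above 0, and the median difference was 1.01, against -0.15 at 6 weeks and 0.05 at 5 weeks. CML41, a member linked to plasmodesmata in immunity, read 4.6, 4.81 and 5.90 in the mutant at 5, 6 and 7 weeks, against 3.79, 4.67 and 4.11 in WT, a 7-week difference of 1.79. CML37 differed by 1.5, with 3.02, 4.22 and 4.25 in the mutant and 2.63, 3.51 and 2.74 in WT. CML38 differed by 1.29, with 2.88, 3.58 and 4.50 in the mutant and 2.96, 4.31 and 3.20 in WT. CML43 differed by 1.12, with 4.30, 4.96 and 5.65 in the mutant and 3.81, 4.90 and 4.53 in WT. In all 4 the mutant array at 7 weeks was the highest of the 6. CML23 was at 3.0 in the mutant and 2.1 in WT at 7 weeks, CML42 at 7.07 in the mutant and 6.96 in WT, CML39 at 2.45 in the mutant and 2.43 in WT, and CML30, the only member below 0, at 3.79 in the mutant and 4.1 in WT.

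Class III peroxidases, secreted enzymes that act on cell wall phenolics, had 6 measured members. PRX71 read 4.22, 5.67 and 5.48 in the mutant and 4.46, 5.08 and 3.76 in WT, a difference of 1.72 at 7 weeks, and PRX52 read 3.26, 4.32 and 4.80 in the mutant and 3.35, 3.79 and 3.74 in WT, a difference of 1.06. The other 4 stayed below 2-fold, Prx37 closest at 0.90. Of the 6 members only 3 were above 0, with PRX72 at -0.17, PRX25 at -0.11 and PER36 at -0.05. The family median of 0.42 therefore lies between separate groups of members. Of 3 measured pectin enzymes 1 was at least 2-fold higher and 0 were lower. It was the pectin methylesterase ATPMEPCRB, which read 4.64, 5.23 and 4.74 in the mutant and 3.92, 3.52 and 3.27 in WT. All 3 mutant arrays were above all 3 WT arrays, an order whose share over all probe sets was not counted. The invertase-like cwINV6 read 5.96 in the mutant and 4.89 in WT at 7 weeks. Of 10 measured xyloglucan transferases and 8 of the cellulose synthase family, 0 were past 2-fold, with medians of 0.03 and -0.02.

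Salicylic acid is the hormone of resistance to biotrophic pathogens. Of the list of 34 genes of its synthesis, perception and response, 4 were measured, all above 0, with 2 at least 2-fold higher and a median difference of 1.0, against 1.06 at 6 weeks and 1.05 at 5 weeks. UGT76B1, which glucosylates salicylic and N-hydroxypipecolic acid, read 6.19, 5.74 and 4.78 in the mutant at 5, 6 and 7 weeks and 3.64, 3.98 and 3.33 in WT. The mutant was above WT at every age, by 2.55, 1.76 and 1.46. The subtilase SBT3.3, an extracellular protease linked to immune priming, read 5.70, 6.93 and 6.51 in the mutant and 4.69, 5.46 and 5.48 in WT, a 7-week difference of 1.03, against 1.47 at 6 weeks and 1.01 at 5 weeks. The related SBT3.5, a neighbour of SBT3.3 in the gene order of the TAIR10.1 assembly, read 5.87, 7.07 and 5.99 in the mutant and 4.97, 5.72 and 4.69 in WT. UGT76B1, SBT3.3 and SBT3.5 were higher in the mutant at each of the 3 ages. Over 10 measured subtilases these 2 were the ones past 2-fold, and the family median was 0.05. GRX480, a glutaredoxin of salicylic acid and jasmonate crosstalk, was at 7.42 in the mutant and 6.45 in WT at 7 weeks. SAG101, a partner of EDS1 in immunity, was at 4.03 in the mutant and 3.44 in WT at that age. GRX480 was below WT in the mutant at 6 weeks, by -0.54, and SAG101 at 5 weeks, by -0.48.

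Pattern-triggered immunity, the response to microbial molecules at the cell surface, had 6 measured genes, 5 above 0 and 0 past 2-fold, with a median difference of 0.45. PUB23, a ubiquitin ligase that restrains this response, read 4.41 in the mutant and 3.59 in WT, the receptor EFR for bacterial elongation factor Tu 3.94 in the mutant and 3.3 in WT, and the kinase BIK1 6.89 in the mutant and 6.38 in WT. The ligase PUB24 was at 6.21 in the mutant and 6.26 in WT. WRKY factors had 7 measured members, with WRKY53 past 2-fold, WRKY6 at 0.64, WRKY47 at 0.61 and a median difference of 0.38.

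Of 13 measured genes matched by symbol as PR-type proteins (chitinases, defensins and others), 2 were at least 2-fold higher and 0 were lower. The median difference was 0.03, with LCR68, at -0.35, the farthest below 0. The match also took in CHIL (-0.29), whose place among PR-type proteins was not checked. The chitinase CHI, an enzyme that cuts fungal cell wall chitin, was bright in every array, at 9.70, 11.21 and 11.46 in the mutant at 5, 6 and 7 weeks and 9.19, 10.10 and 9.98 in WT. The 7-week difference was 1.48 and the mutant was higher at every age. The defensin PDF1.2b read 7.76, 8.55 and 9.39 in the mutant and 8.14, 10.57 and 7.88 in WT, and PDF1.2 read 7.49, 8.25 and 9.01 in the mutant and 7.67, 10.76 and 8.05 in WT. Their 7-week differences were 1.51 and 0.96, and at 6 weeks both were lower in the mutant, PDF1.2b by -2.02. The 2 genes are near-identical and the PDF1.2b probe set carries the mark for probes shared with other sequences, so their separation is uncertain. Of 5 measured coumarin and phenylpropanoid genes 1 was at least 2-fold higher and 0 were lower, with a median of 0.27 and UGT72E1 at -0.92, and of 6 flavonoid genes 0 were past 2-fold, with a median of -0.12. Feruloyl-CoA 6'-hydroxylase (AT3G13610), the enzyme of scopoletin synthesis, read 7.53, 8.39 and 7.02 in the mutant and 6.05, 6.45 and 5.45 in WT, a 7-week difference of 1.56 with the mutant above WT at every age. CCOAMT, a caffeoyl-CoA methyltransferase, read 3.60, 4.68 and 6.91 in the mutant and 4.22, 4.52 and 5.50 in WT, higher at 7 weeks than at 5 weeks in both genotypes. The jasmonate list had 3 measured genes of 26, all below 0: OPCL1 of jasmonate synthesis at -0.19, the thionin THI2.1 at -0.47 and the methyltransferase JMT at -0.22. Of indolic compounds, 2 list genes were measured, UGT74B1 of glucosinolate synthesis at 0.32 and AT2G04400 at 0.40, both below 2-fold.

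The enzymes past 2-fold included further glycosidases and sugar enzymes. The beta-glucosidase BGLU31 read 2.47, 3.08 and 4.55 in the mutant and 2.38, 2.51 and 2.72 in WT, a difference of 1.83, and was the one of 22 measured beta-glucosidases past 2-fold. The starch-degrading amylase AMY1 read 4.06, 4.80 and 6.39 in the mutant and 4.42, 4.98 and 4.63 in WT, a difference of 1.76. In both, the mutant at 7 weeks was the highest array. The cytokinin response regulator RR16 read 5.40, 5.34 and 4.99 in the mutant and 5.34, 6.91 and 3.36 in WT. Its difference of 1.62 came with the lowest array in WT at 7 weeks and the highest in WT at 6 weeks, and the mutant arrays were close together. The chloroplast ascorbate peroxidase SAPX was at 7.40 in the mutant and 6.15 in WT at 7 weeks. At that age the starch-related QQS was at 8.44 in the mutant and 7.26 in WT. The tetraspanin TET8 was at 9.41 in the mutant and 8.31 in WT, and the gibberellin receptor GID1B at 6.11 in the mutant and 5.04 in WT. QQS was below WT in the mutant at 6 weeks, by -0.41.

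Further named genes were past 2-fold on the higher side. The glycosyltransferase UGT73D1 read 3.70, 4.18 and 5.25 in the mutant at 5, 6 and 7 weeks and 2.83, 3.49 and 3.58 in WT, above WT at every age. KELP, a transcriptional coactivator, read 7.83, 7.41 and 7.73 in the mutant and 7.39, 6.77 and 6.39 in WT, and all 3 mutant arrays were above all 3 WT arrays. The glutamate receptor-like channel GLR1.4 was at 5.59 in the mutant and 4.50 in WT at 7 weeks, and ZCF37 at 6.78 in the mutant and 5.47 in WT. HVA22C, a relative of an abscisic acid-induced barley protein, was at 5.45 in the mutant and 4.36 in WT. GLR1.4 was below WT in the mutant at 5 weeks, by -0.57, and HVA22C at 6 weeks, by -0.41. The triterpene synthase LUP5 was at 4.62 in the mutant and 3.60 in WT, and DPL1, which breaks down phosphorylated sphingoid bases, at 5.39 in the mutant and 4.38 in WT.

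**Figure D3:**
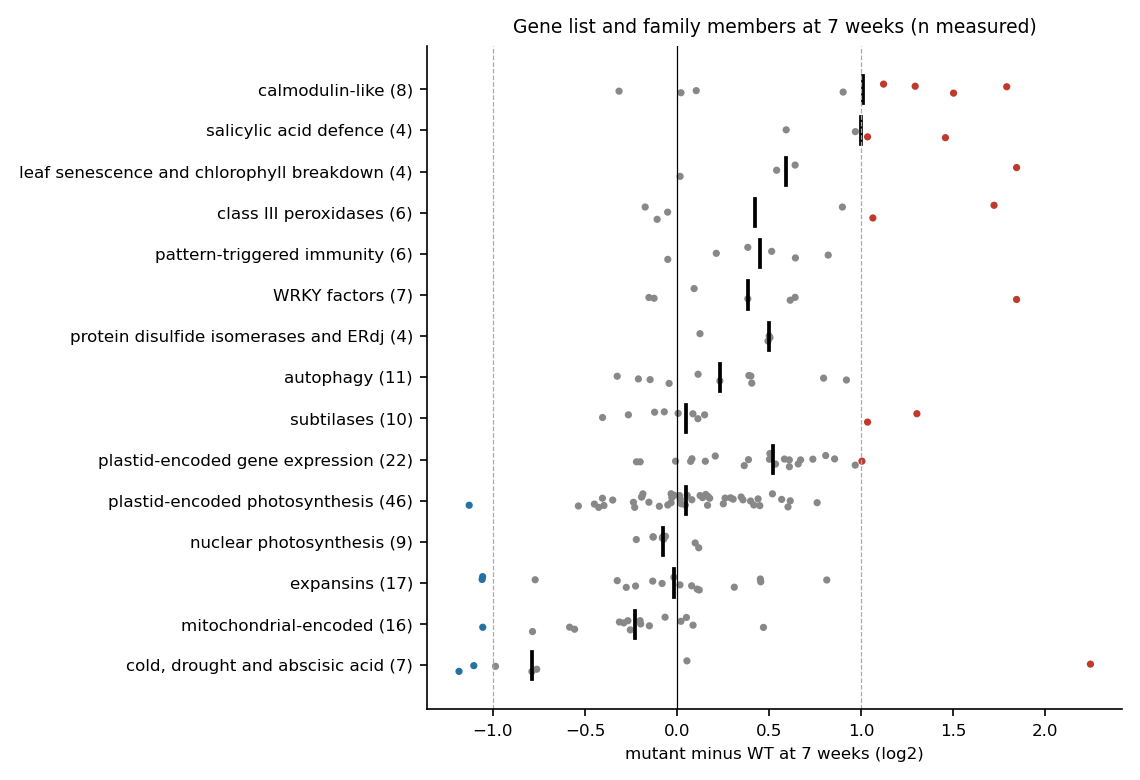
Mutant minus WT at 7 weeks (horizontal axis, log2) for every measured member of 15 gene lists and families (rows, with the number measured). Points are genes, red at least 2-fold higher and blue at least 2-fold lower in the mutant; black bars are medians, which run between 1.01 for calmodulin-like proteins and -0.79 for the cold and drought list.

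Of the senescence list, 4 of 23 genes were measured, all above 0, with a median difference of 0.59, against 0.99 at 6 weeks and -0.17 at 5 weeks. Beside WRKY53, WRKY6 read 4.22, 5.28 and 5.77 in the mutant and 4.59, 4.38 and 5.13 in WT, and PPDK, an enzyme of nitrogen remobilization, read 7.69, 8.45 and 7.55 in the mutant and 7.05, 7.23 and 7.01 in WT. SAG29, a sugar transporter of senescent leaves, was at 3.17 in the mutant and 3.15 in WT at 7 weeks. The nuclear photosynthesis list had 9 measured members, with differences between -0.22 for PSBY and 0.12 for PRK and a median of -0.08. The light-harvesting family had 3 measured members, 1 of them on that list and 0 past 2-fold, and of the others LHCB4.2 was at 11.78 in the mutant and 12.29 in WT and LHCB4.3 at 8.30 in the mutant and 7.48 in WT. Genes of autophagy, the recycling of cell contents, had 11 measured members, 7 above 0 and 0 past 2-fold, with ATG8G at 0.92 and ATG8H at 0.80 farthest from 0.

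Among the lower genes, AT3G28220 stood farthest out, at 5.74, 5.68 and 4.21 in the mutant at 5, 6 and 7 weeks and 6.14, 3.81 and 9.09 in WT. The WT array at 7 weeks was the highest of the 6 by far, the mutant array was 29.4-fold below it, and the 6-week difference was 1.87 the other way. HIS1-3, a linker histone variant induced by drought and abscisic acid, read 2.49, 3.11 and 4.0 in the mutant and 3.26, 3.18 and 7.10 in WT, a difference of -3.10, or 8.57-fold lower. It too was high in a single array, WT at 7 weeks. THI2.2, a thionin, a small antimicrobial peptide, read 5.62, 6.16 and 4.53 in the mutant and 5.81, 5.84 and 6.74 in WT, a difference of -2.20. For THI2.2 the mutant array at 7 weeks was the lowest of the 6 and the WT array at 7 weeks the highest. AT1G52000 read 3.13, 2.92 and 3.77 in the mutant and 3.66, 2.77 and 6.44 in WT, a difference of -2.68, and AT1G66100 read 10.004, 9.62 and 8.07 in the mutant and 9.92, 8.35 and 10.55 in WT, a difference of -2.48.

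Of 7 measured cold, drought and abscisic acid genes, 2 were at least 2-fold lower, 1 was higher (OSM34), 2 were above 0, and the median difference was -0.79, against -0.33 at 6 weeks and -0.67 at 5 weeks. COR15A, a protein that protects chloroplast membranes in the cold, read 9.54, 10.06 and 10.72 in the mutant and 9.94, 10.48 and 11.83 in WT. COR15B, its close paralogue, read 8.91, 9.25 and 9.86 in the mutant and 9.58, 9.40 and 10.85 in WT, a 7-week difference of -0.99. The dehydrin COR47 read 8.32, 8.87 and 9.36 in the mutant and 9.51, 8.60 and 10.55 in WT. COR15A and COR15B were below WT in the mutant at every age, and COR47 at 5 and 7 weeks. COR27, a cold-induced clock-linked protein, was at 8.92 in the mutant and 9.71 in WT at 7 weeks. The dehydrin LTI30 was at 6.02 in the mutant and 6.78 in WT at 7 weeks, but above WT in the mutant at 6 weeks, by 0.92. XERICO, a ring-finger protein of abscisic acid accumulation, read 7.39 in the mutant and 8.43 in WT.

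Lower genes of growth and nutrition were few. IAA29, an auxin-response repressor, read 3.51, 4.84 and 4.0 in the mutant and 4.74, 4.44 and 5.47 in WT, a difference of -1.47. The homeodomain factor HAT2, linked to auxin, was at 5.59 in the mutant and 6.71 in WT at 7 weeks. Of 17 measured expansins, proteins that loosen cell walls, 2 were at least 2-fold lower and 0 were higher, with a median of -0.02. EXPA8 read 8.54, 9.06 and 8.48 in the mutant and 9.21, 9.84 and 9.53 in WT, below WT at every age, whereas EXPB1 read 7.21, 5.82 and 4.1 in the mutant and 6.16, 6.68 and 5.16 in WT, above WT at 5 weeks. At 7 weeks BHLH101, a regulator of iron uptake, read 3.10 in the mutant and 4.39 in WT. AAH, which degrades allantoate from purines, read 4.13 in the mutant and 5.24 in WT, and the nitrate transporter NPF6.4 5.36 in the mutant and 6.39 in WT. BHLH101 and AAH were above WT in the mutant at 6 weeks, by 0.71 and 0.43. NPF6.4 read 8.19, 6.97 and 5.36 in the mutant over the 3 ages and 6.83, 6.22 and 6.39 in WT, so it was 1.36 higher in the mutant at 5 weeks.

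Chloroplast and mitochondrial genes were counted apart. The 22 chloroplast genes grouped under gene expression were those of ribosomal proteins and RNA polymerase, with matK, accD (0.67) and clpP (0.61) counted among them. Their median difference was 0.52 at 7 weeks, against 0.07 at 6 weeks and 0.26 at 5 weeks, and 19 were above 0. Dim at 7 weeks were rpoB, at 2.52 in the mutant and 2.52 in WT, and rps14, at 2.77 and 2.99. The ribosomal protein gene rpl14 was at 4.57 in the mutant and 3.57 in WT, rpl20 at 6.66 in the mutant and 5.69 in WT, and rps4 at 10.57 in the mutant and 10.77 in WT. The 46 chloroplast photosynthesis genes had a median of 0.05 with petG of the cytochrome complex at 4.69 in the mutant and 5.82 in WT, and the 16 mitochondrial genes a median of -0.23. The 7 probe sets of nad1 ran between -1.06 and 0.47. The brightest were below 0, and the dim ones went both ways. The brightest read 5.16 in the mutant and 6.22 in WT, 4.41 and 5.32, and 3.96 and 4.91, with differences of -1.06, -0.91 and -0.95. Those above 0, at 0.47 and 0.08, were dim, at 2.96 in the mutant and 2.49 in WT and at 2.75 and 2.67. The remaining ones were at -0.14 and -0.23. The 25S ribosomal RNA control, another RNA without a poly(A) tail, was at 5.70 in the mutant and 3.87 in WT, the 5S ribosomal RNA control at 2.29 in the mutant and 3.84 in WT, and the 24 poly(A) spike-in probe sets had a median difference of -0.35, all 24 below 0. The part of these in the organelle values was not tested.

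The higher and lower sets were then followed over the 3 ages, with no array shared between ages. The median level of the 325 higher probe sets was 5.21, 5.82 and 6.14 in the mutant at 5, 6 and 7 weeks and 4.80, 5.48 and 4.74 in WT. Since the set was chosen on the 7-week difference, that gap is fixed by the choice, and the other ages were not used in it. The median difference of the set was 0.24 at 5 weeks and 0.32 at 6 weeks. Of the 325, 227 were above 0 at 5 weeks (69.8%) and 212 at 6 weeks (65.2%), beside 46.6% and 46.8% of all probe sets. At 5 weeks 43 of the 325 were at least 2-fold higher, which is 13.2% of the 325 and 21.6% of the 199 of that age, and at 6 weeks 60 were, which is 18.5% of the 325 and 8.90% of the 674. At all 3 ages 16 were at least 2-fold higher, which is 4.92% of the 325. Of all probe sets, 32 were at least 2-fold higher at both 5 and 6 weeks (0.141%). Of the 16, 6 have 1 gene: UGT76B1, SBT3.3, AT3G13610, AT5G39670, AT3G48640 and AT1G43910.

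Of the 95 lower probe sets, the median level was 5.18, 5.32 and 4.87 in the mutant and 5.72, 5.53 and 6.47 in WT. In 66 of them WT at 7 weeks was the highest of the 6 arrays (69.5%), and in 43 the mutant at 7 weeks was the lowest (45.3%), beside 13.9% and 16.0% of all probe sets. The choice of the set on the same 2 arrays raises both counts. Below 0 at 5 weeks were 77 (81.1%) and at 6 weeks 55 (57.9%), beside 53.3% and 53.1% of all probe sets, so the share at 6 weeks was near that of all. At least 2-fold lower at 5 weeks were 13, which is 13.7% of the 95 and 13.3% of the 98, and at 6 weeks 8, which is 8.42% of the 95 and 1.79% of the 448.

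Some genes went opposite ways. Of the 325 higher probe sets, 29 were at least 2-fold lower in the mutant at 6 weeks (8.92%), beside 1.97% of all probe sets. Their median level was 5.19, 5.69 and 6.55 in the mutant and 4.80, 7.05 and 4.85 in WT, and in 18 of the 29 the WT array at 6 weeks was the highest of the 6. They include AT4G12500, its neighbour AT4G12490 at 1.36 against -1.71 at 6 weeks, PDF1.2b and RR16. Of the 95 lower probe sets, 4 were at least 2-fold higher at 6 weeks (4.21%), near the 2.96% of all probe sets. Over all 22746 probe sets, the differences at 7 and 5 weeks correlated at r = 0.264 and those at 7 and 6 weeks at r = 0.146.

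**Figure D4:**
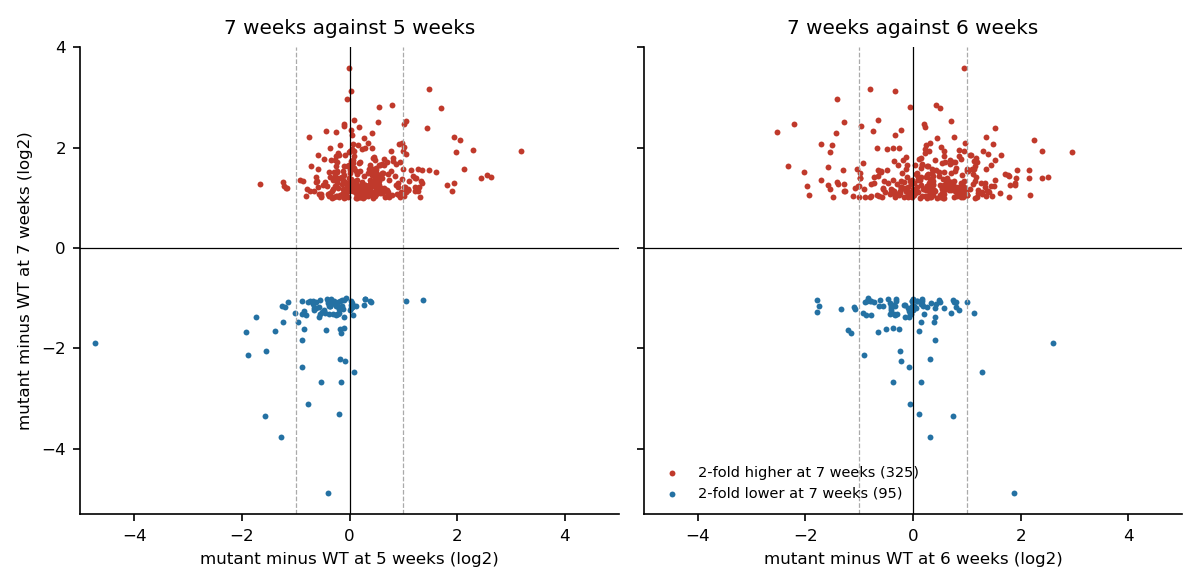
Mutant minus WT at 7 weeks (vertical axes, log2) against the same difference at 5 weeks (left) and 6 weeks (right, horizontal axes, log2), for the 325 probe sets 2-fold higher (red) and the 95 2-fold lower (blue) at 7 weeks. In each panel taken alone most red points lie right of 0, 227 at 5 weeks and 212 at 6 weeks. In both panels 158 of the 325 do (48.6%), beside 20.5% of all probe sets. The 6-week panel has 29 red points at -1 or below.

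Whether 7 weeks stood apart was tested once, over all 6 arrays, as the 7-week difference minus the mean of the 5- and 6-week differences. For this test, higher and lower give the sign of that estimate, which need not be the sign of the 7-week difference. The residual is the change between 5 and 6 weeks, 1 degree of freedom, and the 7-week arrays are assumed to vary like the others. With limma and Benjamini-Hochberg adjustment over 22746 probe sets, 0 passed an adjusted p of 0.05, and 357 had an unadjusted p below that value (246 higher and 111 lower at 7 weeks), where 1137.3 would be so by chance. The smallest p-values for higher genes were those of ARL at 2.92 ± 0.32 (SE), AT4G16260 at 2.81 ± 0.31, STZ at 2.51 ± 0.32, OSM34 at 2.38 ± 0.33 and AMY1 at 2.03 ± 0.30, each with a limma adjusted p of 1.0. For lower genes they were those of HIS1-3 at -2.69 ± 0.43, THI2.2 at -2.27 ± 0.37, AT1G52000 at -2.49 ± 0.42, AT2G47630 at -1.76 ± 0.32 and AT3G28220 at -5.61 ± 1.06, also with a limma adjusted p of 1.0. With a variance that follows the mean level (limma-trend), 49 probe sets passed (38 higher, 11 lower), among them AT3G28220, OSM34, HIS1-3, AGL42, BGLU31, AGL19, ARL and CML38. With probe sets of a mean below 5 left out, 15 passed (12 higher, 3 lower). Among these 15 the order by p was the order by size of the estimate, whatever the change between 5 and 6 weeks. Passing there was thus a cut on size. No gene is therefore called particular to 7 weeks on the deposited scale with the main test. With 1 residual degree of freedom, even ARL at 2.92 ± 0.32 (SE) did not pass. The lack of calls therefore cannot show whether 7 weeks stood apart.

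Some higher genes lay next to each other. In the order of the TAIR10.1 assembly, 15 higher genes with a known place fell into 6 groups in which members lay within 3 protein-coding genes. The largest groups had 3 genes: AT1G32920, SBT3.5 and SBT3.3, then AT1G72900, AT1G72920 and AT1G72940, and then AT3G28480, AT3G28500 and AT3G28510. At 7 weeks AT1G72900 was higher by 1.58, AT1G72920 by 1.33 and AT1G72940 by 1.58, and AT3G28480 by 1.23. Of 477 measured genes within that distance of a higher gene, 15 were themselves higher (3.14%), beside 1.34% of all 12262 genes so placed. Of 136 measured genes near a lower gene, 0 were lower, beside 0.375% of all. These groups were picked after their values were seen, and near-identical neighbours can share probes.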

How the data were processed

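RNA of mature rosette leaves was measured on 6 Affymetrix arrays of 22810 probe sets, 1 per genotype and age. The deposited values are log2 values that the authors made with RMA, as the submitters' processing notes have it (per the labels, no version), and the genome build is not given in the sources used here. They ran between 1.72 and 13.4, with array medians between 3.81 and 3.88. RMA makes array distributions alike and compresses dim values. Precision is limited by the number of arrays. The 64 control probe sets were set aside. The platform annotation gave 13513 of 22746 probe sets 1 gene (59.4%), and 13436 of these had an entry in RefSeq of TAIR10.1, used for names and neighbours; 1685 carried a name beyond the locus.

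Differences at 7 weeks were counted at a log2 difference of 1, without a test. The late test used limma 3.58.1 in R 4.3.3 (lmFit, eBayes), tested on simulated data first. Nothing says that arrays came from separate cultures, so its p-values cover only the spread between these arrays. Named were, among probe sets with 1 gene, the 15 largest nuclear differences in each direction (organelle genes apart), up to 4 members of each list or family, and the 5 smallest p-values of each direction in the late test. Every gene past 2-fold with a name beyond its locus, and the neighbour groups, were added after values were seen, and list matching was then widened to synonyms and 2 family patterns (histones, heat shock) were trimmed of genes outside the family. Members and lists were chosen with earlier results of these data known. Alternatives changed scaling, dim filters, fold and variance model. Python 3.11.15 with pandas 2.3.3 and statsmodels 0.14.6 made the rest.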

Additional observations from a re-analysis of the deposited data

Results flagged for a closer look

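In 12 genes named in the text the 7-week difference was at least 2-fold one way and the difference at another age at least 2-fold the other way, on 1 array a side. None of these reversals was tested on its own. At 6 weeks the difference was -2.20 for AT4G12500, -1.71 for AT2G32190, -1.51 for AT3G10930, -1.57 for RR16 and -2.02 for PDF1.2b, all of which were higher in the mutant at 7 weeks. The same held for AT4G12490 at -1.71 and AT1G32920 at -1.12, both at 6 weeks, and for AT4G16260 at -1.66 at 5 weeks and -1.40 at 6 weeks. At 5 weeks the difference was 1.36 for NPF6.4 and 1.04 for EXPB1, both lower in the mutant at 7 weeks, and at 6 weeks it was 1.27 for AT1G66100 and 1.87 for AT3G28220, also lower at 7 weeks.

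Among the control probe sets, which take no part in the comparison, the 25S ribosomal RNA probe set read 5.70 in the mutant and 3.87 in WT at 7 weeks, a difference of 1.83.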

How the results depend on the processing

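Under 3 scaling alternatives, 0 of the 81 named probe sets changed direction at 7 weeks, and the largest shift of a difference was 0.086. The count of higher probe sets stayed between 261 and 329 under 2 other scalings, an intensity trend and a dim filter on either 7-week array, and that of lower ones between 81 and 97. Leaving out probe sets with a mean below 5 gave 197 higher and 62 lower, probe sets with 1 nuclear gene 166 higher and 47 lower, a fold of 1.5 gave 1035 higher and 635 lower, and a fold of 3 gave 82 higher and 22 lower. At 1.5-fold the higher sets shared 185 probe sets with 5 weeks and 345 with 6 weeks, the lower sets 119 and 128, and the dim filter left 5 lower ones shared with 6 weeks. In the late test limma-trend called 49, no variance moderation 2 and the dim filter 15, against 0 in the main test; the cause was not tested. Of the 2 called with no variance moderation, 1 had a difference of -0.039 at both 5 and 6 weeks and the other -0.037 at both. Nothing was thus left as residual, and their late estimates were 0.28 and -0.09. Of list medians, 8 moved under the dim filter, which leaves fewer genes, among them that of AGAMOUS-like factors to 0.35 and that of expansins to -0.37. Of the 81 named probe sets, 35 have a mean below that floor. No paired analysis was possible within an age because each group is 1 array and the labels give no replicate numbers, and for the same reason no array could be left out; the late test itself sets mutant against WT within each age.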

Other observations

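Other families had few members past 2-fold at 7 weeks. Of 51 measured glycosyltransferases, 2 were at least 2-fold higher, UGT73D1 at 5.25 in the mutant and 3.58 in WT and UGT76B1, and 0 were lower, with a median difference of -0.04. UGT72E1, which glucosylates coniferyl aldehyde, was at 6.96 in the mutant and 7.88 in WT. Of 22 cytochrome P450 genes 0 were past 2-fold, with CYP71B26 at 6.71 in the mutant and 5.81 in WT, CYP71B23 at 6.98 in the mutant and 6.24 in WT and CYP71B6 at 8.08 in the mutant and 7.40 in WT. Of 16 sugar transporters of the SWEET family 0 were past 2-fold, and SWEET11, which loads sucrose for the phloem, was at 9.14 in the mutant and 8.33 in WT. Of 14 glutathione transferases 0 were past 2-fold.

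The reference genes measured were AT4G34270 at 6.62 in the mutant and 6.58 in WT, MON1 at 6.43 in the mutant and 6.63 in WT and PEX4 at 8.07 in the mutant and 8.41 in WT. The actin control probe sets had a median difference of 0.01 and those of GAPDH 0.51.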
